A study of Mus musculus with 19 samples.

Results

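The 9 laminin chain genes Lama1, Lama2, Lama3, Lama4, Lama5, Lamb1, Lamb2, Lamb3 and Lamc1 were followed across 19 implanted tumours of 4T1, a mouse mammary carcinoma cell line. They were taken by symbol from the 46983 genes of the count table, and all 9 passed the filter on low counts that left 16763 genes for testing. Lama3 was chosen by its measured CPM in the knockdown contrasts, where it was much lower, so its knockdown values are given as a description with no test, and the other 8 were taken as the chains of the same protein family. Tumour cells of the cell lines labelled 4T1-Sc (control) or 4T1-KD (LDHA-KD, a knockdown of lactate dehydrogenase A) were implanted in syngeneic BALB/cAnN mice, 1000000 cells each. Treatment with anti-CTLA-4, an antibody against an inhibitory receptor of T cells, or with control IgG began 3 days later and was given 3 times, 3 days apart. The groups were control IgG (n = 4, replicates 1, 3, 4 and 5), control anti-CTLA-4 (n = 5), LDHA-KD IgG (n = 5) and LDHA-KD anti-CTLA-4 (n = 5). Age and sex of the mice, the way the knockdown was made and the number of clones behind each cell line are not given in the labels. No label says that replicates came from separate animals, so the p-values reflect sample-to-sample spread, part of which may be technical.

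Laminins are large cross-shaped proteins of the basement membrane, the thin sheet of matrix under epithelia and around vessels, muscle and nerve. Each is a trimer of an alpha, a beta and a gamma chain. The alpha chain carries the main binding sites for integrins and dystroglycan on the cell surface, while the short arms of most trimers join to one another to form a network. Laminin-332, which holds the products of Lama3 and Lamb3, anchors epithelial cells to the basement membrane through hemidesmosomes, and the trimers with Lamb1 and Lamc1 are found in most tissues.

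Gene counts summed to 31783272 to 43266699 per sample, and the 9 chains took 0.170% to 0.319% of them. Ldha ran from 1283 to 2244 counts per 1000000 (CPM, on totals scaled by TMM factors) in the 9 control samples and from 452 to 584 CPM in the 10 LDHA-KD samples, so the labelled knockdown held in every sample. None of the 11 epithelial markers was at 0 in every sample. Their summed level was 4030 to 5224 CPM in control samples and 2178 to 3445 CPM in LDHA-KD samples. Replicates 3 and 5 of control anti-CTLA-4 and of LDHA-KD anti-CTLA-4 stood apart from the other 15 samples on the second principal component, which held 17.0% of the variance. Calls and counts of laminin chains and partner genes that changed without these 4 libraries are given beside the results. The tumours were sequenced whole, so fewer cells of a type and less RNA per cell cannot be told apart, nor can reads of host and tumour cells.

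Levels of different genes are compared as CPM per kilobase of exon (CPM per kb). In control IgG tumours, the most abundant alpha chain by this measure was Lama5 at 51.9 ± 13.5 CPM per kb (SD, n = 4), followed by Lama3 at 38.4 ± 10.4 CPM per kb, and their ranges overlapped. Lama4 was at 6.49 ± 1.16, Lama2 at 0.349 ± 0.121 and Lama1 at 0.0966 ± 0.0306 CPM per kb, with no overlap between neighbours in this order. Among the beta chains Lamb1 was at 70.0 ± 7.71, Lamb3 at 41.9 ± 13.0 and Lamb2 at 6.88 ± 1.25 CPM per kb, again with no overlap. The gamma chain Lamc1 was at 63.7 ± 10.9 CPM per kb, with a range that overlapped that of Lamb1.

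In LDHA-KD IgG tumours the order of the means within each class was the same, while the gaps differed. Lama5 was at 53.5 ± 4.26 CPM per kb (SD, n = 5), and Lama3 was at 4.11 ± 0.430 CPM per kb, with a range that overlapped that of Lama4 at 3.82 ± 0.212. Lamb1 was at 57.1 ± 1.34, Lamb3 at 9.34 ± 0.824 and Lamb2 at 6.72 ± 0.765 CPM per kb. Lamc1 was at 53.5 ± 2.36 CPM per kb. In LDHA-KD anti-CTLA-4 tumours (n = 5) the order of Lama3 and Lama4 turned. Lama4 was at 4.57 ± 1.24 and Lama3 at 4.00 ± 1.30 CPM per kb there, with ranges that overlapped.

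**Figure D1:**
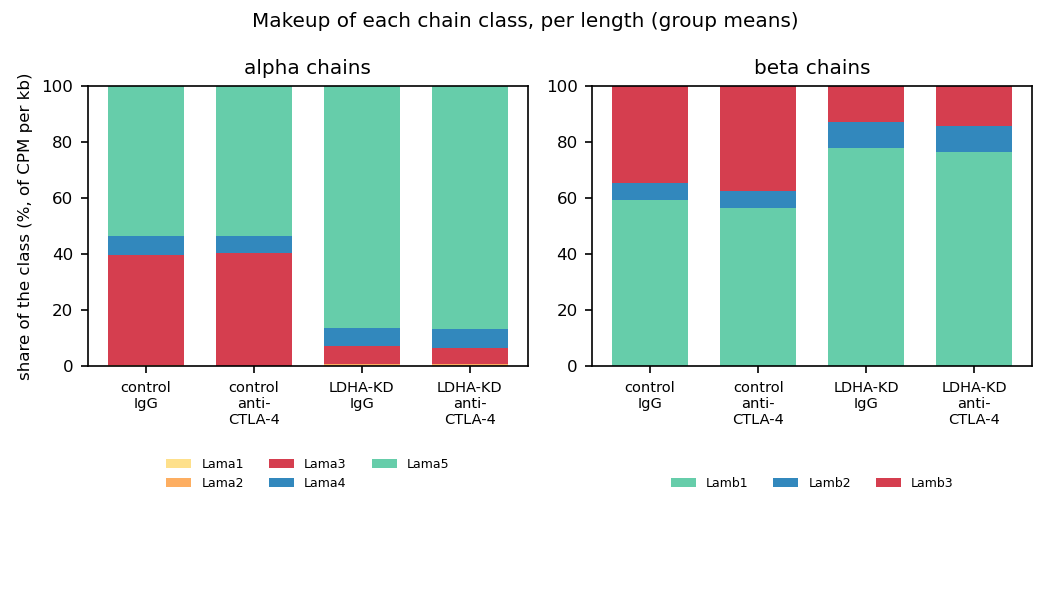
Share of each chain in its class (percent of the class sum of CPM per kb, group means) for alpha and beta chains in the 4 groups, n = 4, 5, 5 and 5 from left to right. The laminin-332 chains Lama3 and Lamb3 are red, and their segments are smaller in both LDHA-KD groups than in both control groups.

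As shares of the summed alpha chains, Lama3 made up 39.3% ± 2.41 (SD, n = 4) in control IgG and 40.2% ± 2.46 (n = 5) in control anti-CTLA-4 tumours, against 6.67% ± 0.911 and 5.99% ± 1.99 in the matching LDHA-KD groups (n = 5 each). Lama5 took 53.4% and 53.6% of the alpha chains in the control groups and 86.4% and 86.5% in the LDHA-KD groups. These alpha shares rest on Lama3, the gene picked for its difference, and are a description. Among the beta chains, Lamb3 went from 34.7% ± 4.60 to 12.8% ± 0.883 under IgG and from 37.6% ± 4.13 to 14.1% ± 2.08 under anti-CTLA-4. Shares are relative: the alpha sum itself was 97.2 ± 24.7 CPM per kb in control IgG and 61.9 ± 4.20 CPM per kb in LDHA-KD IgG tumours.

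The knockdown contrasts asked which chains differed between LDHA-KD and control tumours under each treatment. Each log2 fold change is from edgeR's quasi-likelihood test over all 19 samples, with its standard error (SE) and a p-value adjusted by Benjamini-Hochberg over the 16763 genes, and a gene was called at an adjusted p under 0.05. The SE was worked back from the fold change and the F statistic of that test. For Lama3 in the knockdown contrasts it only describes spread. Under IgG, 4 of the 8 chains other than Lama3 were called lower and 0 higher, while 17.5% of all genes tested were called lower and 16.8% higher. Under anti-CTLA-4, 2 of these 8 were called lower and 1 higher, while 19.8% and 20.2% of all genes were. Lamb3 was lower in both, Lama4 and Lamc1 were called under IgG, Lamb1 was called in both, and Lama1 was higher under anti-CTLA-4. Without the 4 libraries that stood apart, 3 of the 8 were lower and 0 higher in each contrast. The median log2 fold change of the 8 chains was -0.27 under IgG and -0.02 under anti-CTLA-4, beside -0.00165 and 0.00586 over all genes. The control samples differ between the contrasts, so each stands on its own.

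**Figure D2:**
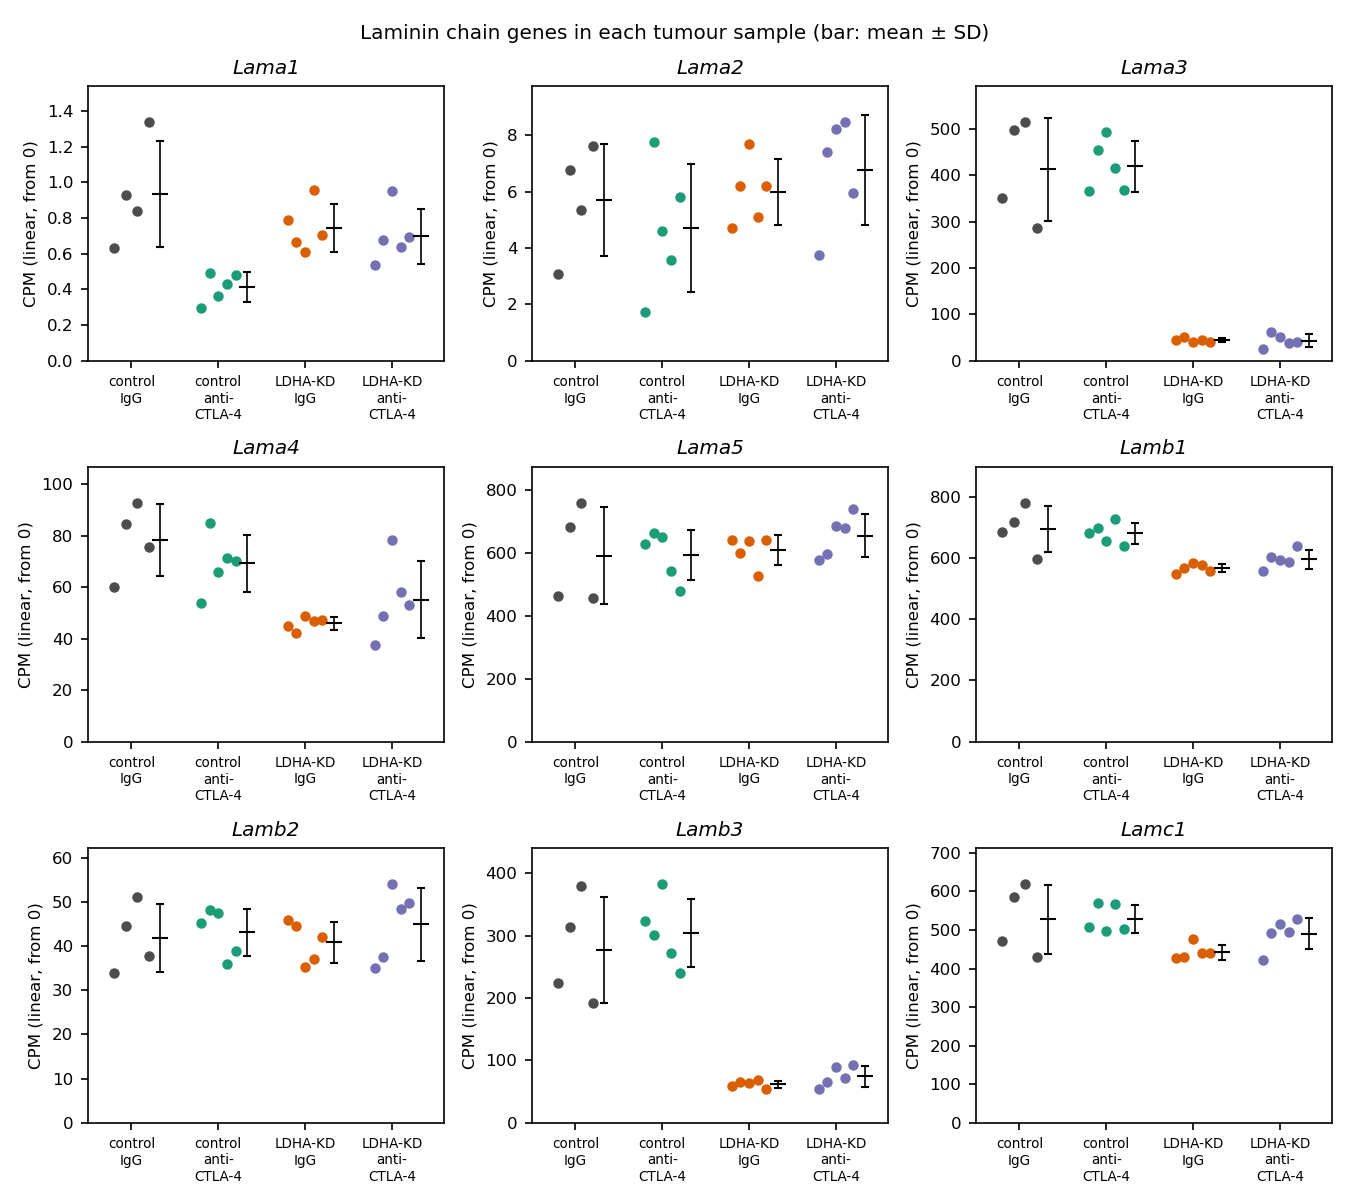
CPM of each of the 9 laminin chain genes (linear axes that start at 0 and differ between panels) in every sample of the 4 groups, with the group mean ± SD beside the points. Lamb3 lies lower in all 10 LDHA-KD samples than in any of the 9 control samples. Lama3 does too, but it was picked for this fall. Within a treatment, 15.2% (IgG) and 11.6% (anti-CTLA-4) of all genes had no overlap on the lower side.

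Lama3, on chr18:12333819-12583013 (+ strand, ENSMUSG00000024421.16, GENCODE M21 on GRCm38), encodes the alpha chain of laminin-332. It was at 352, 497, 515 and 286 CPM in control IgG samples and at 366, 455, 493, 416 and 368 CPM in control anti-CTLA-4 samples. LDHA-KD IgG samples had 45.4, 51.3, 39.6, 43.9 and 40.7 CPM, and LDHA-KD anti-CTLA-4 samples had 24.8, 61.9, 50.3, 37.97 and 39.7 CPM. The highest LDHA-KD sample, replicate 2 under anti-CTLA-4, lay below the lowest control sample, replicate 5 under IgG. The log2 fold change was -3.22 (SE 0.21) under IgG and -3.29 (SE 0.21) under anti-CTLA-4, a 9.33-fold and a 9.77-fold lower level. The antisense gene Gm29200 shares 197 exonic bases with Lama3, 1.83% of its exon length, and how the counting used strand is not given in the sources used here.

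Lama4, on chr10:38965515-39110188 (+ strand, ENSMUSG00000019846.11), encodes the alpha chain of laminins around vessels, fat and muscle. Control IgG samples had 60.1, 84.4, 92.8 and 75.8 CPM, and LDHA-KD IgG samples had 45.1, 42.2, 48.9, 46.7 and 47.4 CPM. All 5 LDHA-KD samples were below all 4 controls, and the log2 fold change was -0.77 (SE 0.16, edgeR adjusted p = 0.00116). Without overlap between the groups were 15.2% of all genes on the lower side in this contrast.

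Under anti-CTLA-4, control samples had 54.0, 84.8, 66.0, 71.5 and 70.2 CPM of Lama4, and LDHA-KD samples had 37.7, 48.9, 78.2, 58.2 and 53.0 CPM. The groups overlapped, with LDHA-KD replicate 3 above 4 of the 5 controls. The log2 fold change of -0.33 (SE 0.15) did not pass (edgeR adjusted p = 0.0940). It passed without LDHA-KD anti-CTLA-4 replicate 3 (-0.49, adjusted p = 0.00925), when control replicate 1 under anti-CTLA-4 was left out (-0.41, adjusted p = 0.0495) and without the 4 libraries that stood apart (-0.54, adjusted p = 0.0331), and with 1 library left out at a time the adjusted p ran from 0.00925 to 0.225. The difference between the knockdown effects under the 2 treatments was 0.44 on the log2 scale (SE 0.22, edgeR adjusted p = 0.9998 for the interaction).

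Some markers of other cell types also differed between LDHA-KD and control tumours. Under IgG, 10 of 12 endothelial markers were called lower and 1 higher, with a summed level of 457 to 607 CPM in control and 356 to 420 CPM in LDHA-KD samples. Of 8 pericyte and smooth muscle markers, 4 were called lower and 0 higher, and their sum was 126 to 180.1 CPM in control and 105 to 134 CPM in LDHA-KD samples. Of 11 fibroblast markers, 4 were called lower and 1 higher, with sums of 3655 to 5717 and 3538 to 4443 CPM. Under anti-CTLA-4, 7 of the 12 endothelial markers were called lower and 1 higher. Of the pericyte and smooth muscle markers 2 were lower and 0 higher there, and of the fibroblast markers 0 were lower and 3 higher. Of all genes tested, 17.5% were called lower and 16.8% higher under IgG, and 19.8% and 20.2% under anti-CTLA-4. No marker of these lists was at 0 in every sample, and their part in the difference of Lama4 was not tested.

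Lama1, on chr17:67697259-67822647 (+ strand, ENSMUSG00000032796.7), encodes the alpha chain of the laminin of the early embryo and was the least abundant chain, with 10 to 47 counts per sample. Under anti-CTLA-4 it was at 0.294, 0.492, 0.363, 0.429 and 0.483 CPM in control samples and at 0.535, 0.675, 0.952, 0.637 and 0.692 CPM in LDHA-KD samples. All LDHA-KD samples were above all controls, which held on the higher side for 11.6% of all genes. The log2 fold change was 0.75 (SE 0.23, edgeR adjusted p = 0.0136), and 0.59 (adjusted p = 0.171) without the 4 libraries that stood apart. With 1 library left out at a time the adjusted p stayed between 0.00845 and 0.0461. Under IgG, control samples had 0.635, 0.929, 0.839 and 1.34 CPM and LDHA-KD samples 0.789, 0.667, 0.612, 0.957 and 0.708 CPM, overlapping, with a log2 fold change of -0.32 (SE 0.23, edgeR adjusted p = 0.294).

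Lama2, on chr10:26980036-27619758 (- strand, ENSMUSG00000019899.15), encodes the alpha chain of muscle and peripheral nerve laminin. It ranged from 1.73 to 8.48 CPM over the 19 samples, and all 4 groups overlapped. Under IgG its log2 fold change was 0.07 (SE 0.33, edgeR adjusted p = 0.891). Under anti-CTLA-4 it was 0.52 (SE 0.31, edgeR adjusted p = 0.187). The antisense gene Gm48084 shares 631 exonic bases with it, 3.86% of its exon length.

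Lama5, on chr2:180176373-180225859 (- strand, ENSMUSG00000015647.9), encodes the alpha chain of laminin-511, the main laminin of many adult epithelia and vessels. Control IgG samples had 464, 684, 760.2 and 458 CPM, and LDHA-KD IgG samples had 641, 602, 637, 528 and 641 CPM. The LDHA-KD samples all lay inside the range of the controls, and the log2 fold change was 0.04 (SE 0.14, edgeR adjusted p = 0.837). Under anti-CTLA-4, control samples had 629.7, 663, 651, 544 and 479.8 CPM and LDHA-KD samples 579.8, 596, 685, 679 and 741 CPM, with overlap and a log2 fold change of 0.14 (SE 0.13, edgeR adjusted p = 0.397).

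**Figure D3:**
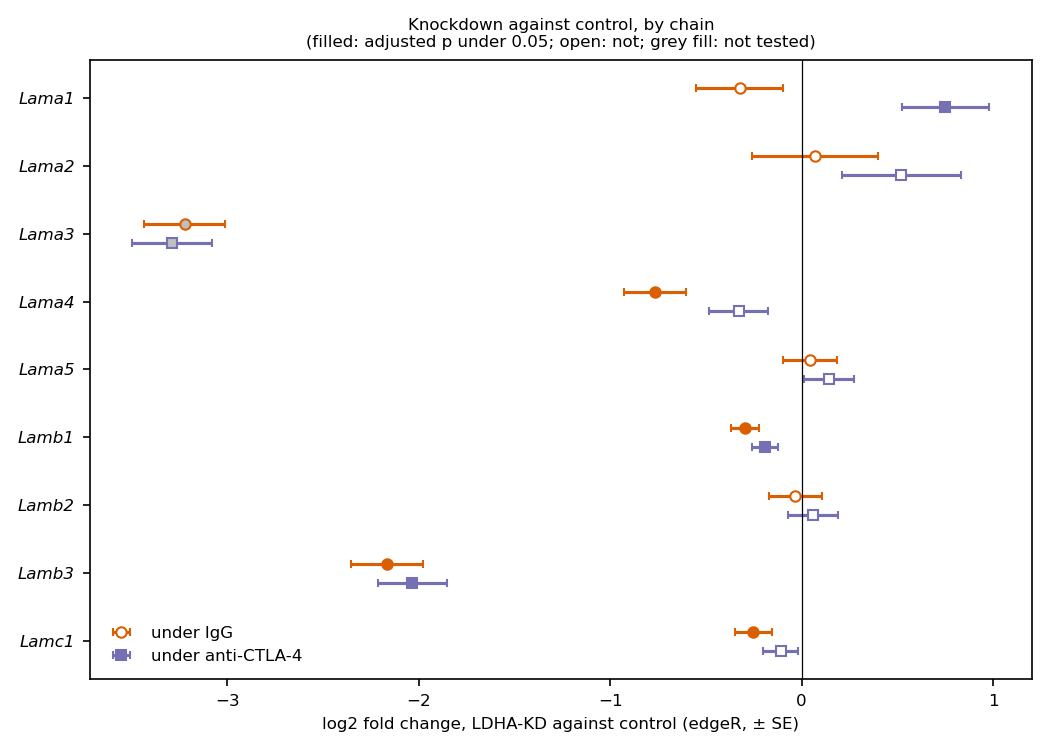
Knockdown difference on the log2 scale (LDHA-KD minus control, edgeR, ± SE) for the 9 chains under IgG (circles) and anti-CTLA-4 (squares). Filled symbols passed an adjusted p of 0.05, open ones did not, and grey ones mark Lama3, which was not tested. Lama3 and Lamb3 lie between -3.29 and -2.03, and the other 7 members between -0.77 and 0.75.

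Lamb3 encodes the beta chain of laminin-332, and Lamb1 the beta chain of many laminins outside epithelial anchors. RefSeq's promoter table for GRCm38.p6 held an entry for 5 of the 9 genes. Stretches upstream of a RefSeq start of these beta chains are shown because Lamb3 was the beta chain that fell most and Lamb1 the most abundant one, and they differed widely in their knockdown values. Capitals mark the letters CANNTG (an E-box) and GGGCGG (a GC box), searched on both strands. The Lamb3 stretch is chr1:193301744-193301992 and the Lamb1 stretch chr12:31265043-31265233, both on the + strand of GRCm38.p6. The Lamb1 stretch ends just before the GENCODE gene. The Lamb3 stretch lies inside the GENCODE gene, 94045 bases from its start, where it overlaps 0 annotated exons, because other Lamb3 transcripts begin far upstream of this start.
Lamb3: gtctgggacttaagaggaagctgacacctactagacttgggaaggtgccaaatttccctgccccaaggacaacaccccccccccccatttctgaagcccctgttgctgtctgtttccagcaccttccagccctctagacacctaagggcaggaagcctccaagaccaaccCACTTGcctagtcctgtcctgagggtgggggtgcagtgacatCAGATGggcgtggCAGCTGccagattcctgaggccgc
Lamb1: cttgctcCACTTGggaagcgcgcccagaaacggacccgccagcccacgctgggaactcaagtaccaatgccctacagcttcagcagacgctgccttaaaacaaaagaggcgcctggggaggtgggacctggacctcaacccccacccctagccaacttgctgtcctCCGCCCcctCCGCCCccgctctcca
The 249 bases of Lamb3 held 3 matches to CANNTG, which begin 80, 38 and 25 bases before its first RefSeq start, and 0 to GGGCGG. The 191 bases of Lamb1 held 1 match to CANNTG, 243 bases before its start, and 2 to GGGCGG, on the reverse strand (CCGCCC), 84 and 75 bases before it. Over the same 249 bases, 66.1% of all 32851 promoters in the table held CANNTG and 32.6% held GGGCGG. Over the 191 bases these shares were 57.5% and 23.1%. Matches describe these letters and are no measure of binding.

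Lamb3, on chr1:193207699-193343878 (+ strand, ENSMUSG00000026639.18), was at 224, 314, 379 and 191 CPM in control IgG samples and at 58.1, 65.0, 63.2, 68.0 and 54.5 CPM in LDHA-KD IgG samples. Under anti-CTLA-4 the controls had 324, 300.2, 383, 271 and 240.0 CPM and the LDHA-KD samples 53.4, 64.7, 88.9, 71.6 and 92.2 CPM. No LDHA-KD sample reached the lowest control sample under either treatment. Lamb3 fell 4.48-fold under IgG (log2 fold change -2.16, SE 0.19, edgeR adjusted p = 7.06e-08) and 4.10-fold under anti-CTLA-4 (-2.03, SE 0.18, edgeR adjusted p = 8.37e-08). Groups without overlap on the lower side were found for 15.2% of all genes under IgG and 11.6% under anti-CTLA-4. Lama3 and Lamb3 are chains of the same trimer, yet their per-length ratio (Lama3 to Lamb3) was 0.924 ± 0.0637 (SD, n = 4) in control IgG, 0.861 ± 0.112 in control anti-CTLA-4, 0.442 ± 0.0473 in LDHA-KD IgG and 0.363 ± 0.130 in LDHA-KD anti-CTLA-4 tumours (n = 5 each). Since the ratio contains Lama3, it is a description.

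Of 6 basal or myoepithelial markers, cells that also express laminin-332, 3 were called lower and 0 higher in each contrast. Of all genes, 17.5% and 19.8% were called lower and 16.8% and 20.2% higher. The summed level of these markers was 226 to 436 CPM in control and 67.0 to 309.8 CPM in LDHA-KD samples. Krt5 and Krt14 of this list are also in the list of hemidesmosome genes. None of the 6 markers was at 0 in every sample. Of the 11 epithelial markers, 4 were called lower and 1 higher under IgG, and 7 lower and 1 higher under anti-CTLA-4. The part of either list in the fall of Lamb3 was not tested.

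Lamb1, on chr12:31265234-31329644 (+ strand, ENSMUSG00000002900.15), was at 685, 716, 780.1 and 596 CPM in control IgG samples and at 549, 566, 582, 576 and 557 CPM in LDHA-KD IgG samples. The highest LDHA-KD sample was below the lowest control, by a small margin, and the level fell 1.23-fold (log2 fold change -0.29, SE 0.07, edgeR adjusted p = 0.00379). Under anti-CTLA-4, controls had 683, 697, 657, 727 and 638 CPM and LDHA-KD samples 556, 602, 594, 587 and 641 CPM, where LDHA-KD replicate 5 reached above 1 control. The log2 fold change there was -0.19 (SE 0.07, edgeR adjusted p = 0.0327). That call was lost on library totals alone (-0.09, adjusted p = 0.305) and with no filter on low counts (-0.18, adjusted p = 0.110). It was also lost without any 1 of control replicates 1, 2 and 4 or LDHA-KD replicates 1, 3 and 4 under anti-CTLA-4, and the adjusted p with 1 library left out at a time ran from 0.0164 to 0.0926.

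Lamb2, on chr9:108479736-108490530 (+ strand, ENSMUSG00000052911.9), encodes the beta chain of laminins at the neuromuscular junction and the kidney filter. Control IgG samples had 33.8, 44.6, 51.1 and 37.8 CPM and LDHA-KD IgG samples 45.9, 44.5, 35.2, 37.0 and 41.9 CPM. Under anti-CTLA-4, controls ran from 36.0 to 48.1 CPM and LDHA-KD samples from 35.1 to 54.1 CPM. The groups overlapped in both contrasts, with log2 fold changes of -0.03 (SE 0.14, edgeR adjusted p = 0.880) and 0.06 (SE 0.13, adjusted p = 0.743). The former turned to 0.04 on library totals alone and the other to -0.10 without the 4 libraries that stood apart.

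Lamc1, on chr1:153218922-153332786 (- strand, ENSMUSG00000026478.14), encodes the gamma chain of most laminins. Control IgG samples had 472, 587, 619.8 and 431 CPM, and LDHA-KD IgG samples had 428, 429, 476, 440.4 and 440.3 CPM. The groups overlapped through control replicates 1 and 5, and the level was 1.19-fold lower (log2 fold change -0.25, SE 0.10, edgeR adjusted p = 0.0488). This call lay at the threshold and was lost under 21 of 27 alternatives. These included library totals alone (-0.18, adjusted p = 0.186), and it was lost when any 1 of 15 of the 19 libraries was left out, all but control IgG replicates 1 and 5, LDHA-KD IgG replicate 3 and LDHA-KD anti-CTLA-4 replicate 1. With 1 library left out at a time the adjusted p ran from 0.00888 to 0.1996, and without the 4 libraries that stood apart it was 0.0593. Under anti-CTLA-4, controls had 508, 569, 496, 568 and 502 CPM and LDHA-KD samples 423, 492, 516, 495 and 527 CPM, with a log2 fold change of -0.11 (SE 0.09, edgeR adjusted p = 0.360).

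The treatment contrasts asked whether anti-CTLA-4 changed the chains. By edgeR, 0 of the 9 chains were called in control tumours and 0 of 9 in LDHA-KD tumours, as were 0.00% of all genes in either contrast. At an unadjusted p under 0.05 there was 1 chain of 9 in control tumours and 0 of 9 in LDHA-KD tumours, against 8.03% and 11.9% of all genes. DESeq2 called 13 genes in control and 49 in LDHA-KD tumours, of which 1 and 0 were laminin chains. That chain was Lama1. Its 5 control anti-CTLA-4 samples were all below its 4 control IgG samples, as given above, which held in either direction for 1.27% of all genes. The log2 fold change was -1.17 (SE 0.24), with an adjusted p of 0.4999 by edgeR and 0.0466 by DESeq2, and the other alternatives gave 0.111 to 0.9995. In LDHA-KD tumours Lama1 had a log2 fold change of -0.10 (SE 0.22, edgeR adjusted p = 0.882).

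Lama3 did not separate by treatment. Its mean was 412 ± 112 CPM (SD, n = 4) with IgG and 420 ± 55.2 CPM (n = 5) with anti-CTLA-4 in control tumours, a log2 fold change of 0.03 (SE 0.20, edgeR adjusted p = 0.983). In LDHA-KD tumours it was 44.2 ± 4.62 and 43.0 ± 14.0 CPM, a log2 fold change of -0.04 (SE 0.19, edgeR adjusted p = 0.946). Lamb3 in LDHA-KD tumours was 61.8 ± 5.45 CPM with IgG and 74.1 ± 16.4 CPM with anti-CTLA-4, a log2 fold change of 0.26 (SE 0.17, edgeR adjusted p = 0.559). The interaction, the knockdown effect under anti-CTLA-4 minus that under IgG, was tested for the 8 chains other than Lama3: 0 were called by edgeR, and by DESeq2, and 1 (Lama1, 1.08, SE 0.32) had an unadjusted p under 0.05, against 0.00% of all genes called and 2.48% at that unadjusted p.

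Partners of the laminins were taken from 6 lists and set beside the called shares of all genes given above. Of 14 laminin receptor genes, 8 were called lower and 0 higher under IgG, and 6 lower and 0 higher under anti-CTLA-4, with list medians of -0.33 and -0.38 on the log2 scale. The count under IgG rested on single libraries: 3 were lower without control IgG replicate 3, and 3 without control IgG replicate 4. On library totals alone 5 were lower and 1 (Sdc4) higher under IgG, and 5 lower and 2 (Itga1 and Sdc4) higher under anti-CTLA-4. Under IgG 5 were lower with only the groups compared, and without the 4 libraries that stood apart 7 and 5 were lower. The heparan sulfate proteoglycan syndecan-1 (Sdc1) fell by 1.38 (SE 0.12, edgeR adjusted p = 8.71e-08) and by 1.42 (SE 0.12, adjusted p = 3.34e-08) in the 2 contrasts. Mcam, an adhesion receptor of vessels and tumour cells that binds Lama4 laminin, fell by 1.05 (SE 0.07, edgeR adjusted p = 3.15e-09) and by 0.83 (SE 0.07, adjusted p = 2.46e-08). The integrin beta 1 subunit (Itgb1) fell by 0.50 and 0.49 (edgeR adjusted p = 0.00166 and 0.00124).

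Integrins alpha 3 beta 1 and alpha 6 beta 4 are the main receptors of laminin-332. Itga6 fell by 0.35 under IgG (log2 fold change -0.35, SE 0.10, edgeR adjusted p = 0.0118) and fell by 0.39 under anti-CTLA-4 (-0.39, SE 0.10, adjusted p = 0.00379). The call under IgG was lost without control IgG replicate 3 (-0.30, adjusted p = 0.0501) or 4 (-0.26, adjusted p = 0.0589). Itga3 had -0.32 (SE 0.11, edgeR adjusted p = 0.0292) under IgG, a call that was lost without any 1 of control IgG replicates 3 and 4 or LDHA-KD IgG replicates 1, 3, 4 and 5 (adjusted p up to 0.141). It was also lost on library totals alone (-0.25, adjusted p = 0.111), with no filter on low counts (adjusted p = 0.0580) and with only the groups compared (adjusted p = 0.0731). It had -0.48 (SE 0.10, adjusted p = 0.00108) under anti-CTLA-4. Itgb4 was at 280 ± 81.3 CPM in control IgG and 278 ± 19.4 CPM in LDHA-KD IgG tumours, a log2 fold change of -0.01 (SE 0.15, edgeR adjusted p = 0.963), and at 0.04 (SE 0.14, adjusted p = 0.853) under anti-CTLA-4. Dystroglycan (Dag1) had -0.20 (SE 0.11, edgeR adjusted p = 0.172) and -0.17 (SE 0.10, adjusted p = 0.204), and the former passed without control IgG replicate 1 (-0.31, adjusted p = 0.0233).

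**Figure D4:**
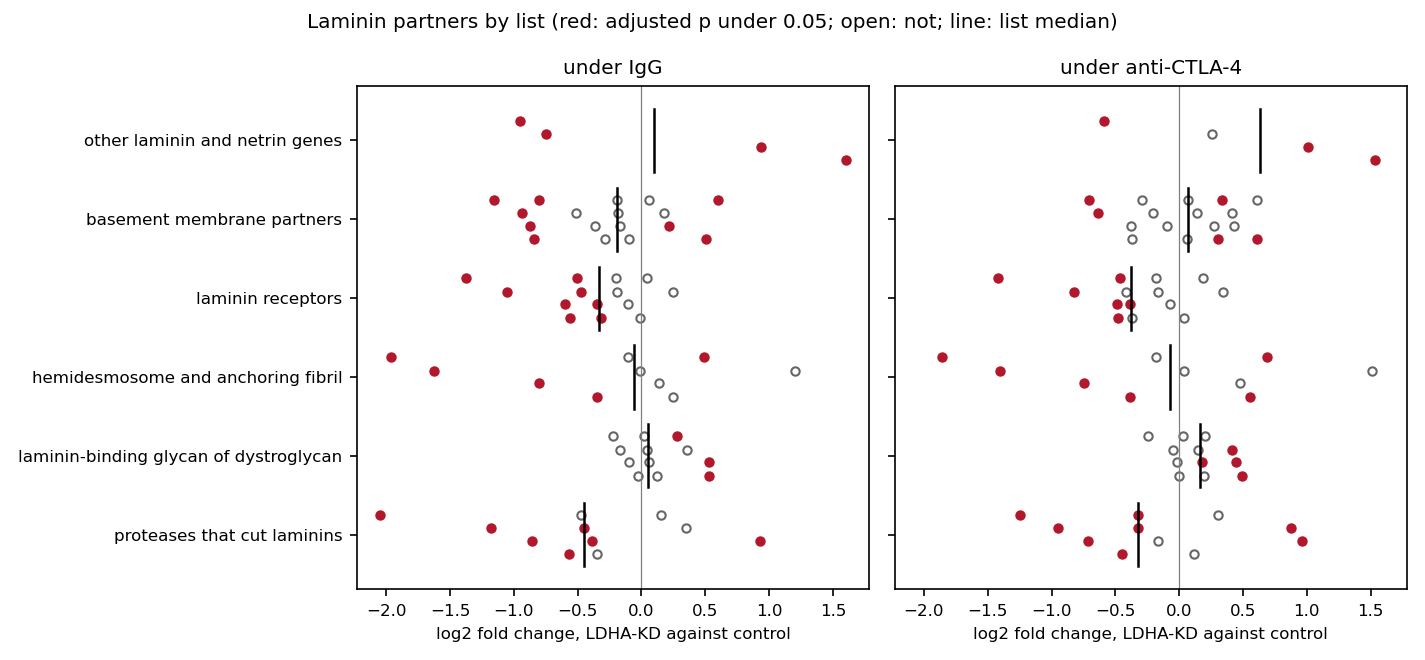
Knockdown difference on the log2 scale (LDHA-KD minus control) for each tested gene of 6 lists of laminin partners, under IgG (left) and anti-CTLA-4 (right). Red points passed an adjusted p of 0.05, open points did not, and the line is the list median. Among laminin receptors 8 (left) and 6 (right) are red on the lower side and 0 on the higher side, where library totals alone put 1 and 2.

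Hemidesmosomes fasten epithelial cells to laminin-332, and anchoring fibrils hold it to the tissue beneath. Of 10 genes listed with these structures, 4 were called lower and 1 higher under IgG, and 4 lower and 2 higher under anti-CTLA-4. The list medians were -0.06 and -0.07. Fermt1, an activator of integrins, was listed with them. Itga6, Itgb4 and Cd151 are also in the list of laminin receptors, so the calls of Itga6 are counted in both lists. The gene called higher in both was Dst. The other under anti-CTLA-4, Plec, lost its call without the 4 libraries that stood apart and with voom and when any 1 of 9 libraries was left out. Under IgG the call of Dst was lost without control IgG replicate 1. Kindlin-1 (Fermt1), an activator of integrins, fell by 1.96 (SE 0.11, edgeR adjusted p = 4.80e-10) and 1.86 (SE 0.11, adjusted p = 4.82e-10). Keratin 14 (Krt14) fell by 1.63 (edgeR adjusted p = 2.89e-04) and 1.40 (adjusted p = 6.57e-04), and Col7a1, the collagen of anchoring fibrils, fell by 0.80 and 0.74 (adjusted p = 5.61e-04 and 6.08e-04). Dst, which encodes the hemidesmosome plaque protein BPAG1 among other isoforms, was higher by 0.69 (SE 0.14, edgeR adjusted p = 6.54e-04) under anti-CTLA-4.

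Among 17 other tested components of the basement membrane, 5 were called lower and 3 higher under IgG, and 2 lower and 3 higher under anti-CTLA-4, with list medians of -0.20 and 0.07. Without the 4 libraries that stood apart, 6 were lower and 3 higher under IgG and 4 lower and 1 higher under anti-CTLA-4. Nidogens bind the laminin gamma 1 chain and link laminin to other matrix proteins. Nid2 fell by 0.84 (SE 0.13, edgeR adjusted p = 5.01e-05) and by 0.64 (SE 0.12, adjusted p = 3.51e-04). Nid1 fell by 0.94 under IgG (SE 0.20, edgeR adjusted p = 0.00125). Under anti-CTLA-4 it had -0.37 (SE 0.19, edgeR adjusted p = 0.126), and it passed without LDHA-KD anti-CTLA-4 replicate 3 (-0.58, adjusted p = 0.0108) and without the 4 libraries that stood apart (-0.71, adjusted p = 0.0125). Fibulin-2 (Fbln2) fell by 1.16 and 0.71 (edgeR adjusted p = 2.37e-04 and 0.00696). The type IV collagen chain Col4a1 was at -0.17 under IgG (SE 0.13, edgeR adjusted p = 0.342) and at 0.07 under anti-CTLA-4 (SE 0.12, adjusted p = 0.676). Agrin (Agrn), a heparan sulfate proteoglycan that binds laminin, was higher by 0.33 (SE 0.07, edgeR adjusted p = 0.00137) under anti-CTLA-4, and by 0.22 (adjusted p = 0.0879) without the 4 libraries that stood apart.

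Of 12 enzymes that build the laminin-binding glycan of dystroglycan, 3 were called higher and 0 lower under IgG and 4 higher and 0 lower under anti-CTLA-4, with medians of 0.05 and 0.16. Without the 4 libraries that stood apart, 2 were higher under anti-CTLA-4, where Pomgnt2 (0.32, edgeR adjusted p = 0.215) and B3galnt2 (0.16, adjusted p = 0.192) lost their calls. Pomt1, which starts the glycan, rose by 0.53 (SE 0.11, edgeR adjusted p = 7.76e-04) and 0.44 (SE 0.10, adjusted p = 0.00168), and Large2, which extends it, rose by 0.53 and 0.49 (adjusted p = 6.51e-04 and 6.54e-04). Of 11 proteases known to cut laminins, 6 were called lower in each contrast, and 1 and 2 were called higher. Under anti-CTLA-4, 3 were lower on library totals alone and 4 without control replicate 2, and Mmp2 lost its call as higher without the 4 libraries that stood apart (0.60, edgeR adjusted p = 0.112). Mmp9 fell by 2.05 (SE 0.33, edgeR adjusted p = 9.60e-05) under IgG, while Mmp3 fell by 1.18 and 0.95 (adjusted p = 4.18e-06 and 2.37e-05). Cathepsin S (Ctss) rose by 0.93 (SE 0.10, edgeR adjusted p = 1.001e-06) and 0.88 (SE 0.09, adjusted p = 7.20e-07), beside 7 of 7 tested leukocyte markers called higher in each contrast. Of all genes, 16.8% and 20.2% were called higher. The leukocyte sum was 624 to 1787 CPM in control and 1466 to 3024 CPM in LDHA-KD samples, and its part in the protease values was not tested.

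Netrins carry a laminin-like end. Ntn1 rose by 1.60 under IgG, from 22.1 ± 3.06 to 67.0 ± 14.6 CPM (SE 0.19, edgeR adjusted p = 4.13e-06), and by 1.53 under anti-CTLA-4 (SE 0.18, adjusted p = 2.62e-06). Ntn4, which binds laminin gamma chains, fell by 0.96 (SE 0.18, edgeR adjusted p = 3.93e-04) and 0.59 (SE 0.17, adjusted p = 0.00921). Of the 4 tested genes in this list, 2 were called higher and 2 lower under IgG, and 2 higher and 1 lower under anti-CTLA-4. The call of Lamc3 as lower under IgG was lost without any 1 of control IgG replicates 4 and 5 or LDHA-KD IgG replicates 3, 4 and 5 (adjusted p up to 0.0679).

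Variation between samples was compared after the group means had been removed from log2 CPM, so that group differences play no part. All values of a sample share its library and scaling. Over 19 samples and 36 pairs of chains, Lamb1 and Lamc1, the beta and gamma chains of the same trimers, had the highest correlation, with Pearson's r = 0.89 (permutation p = 5.00e-05, two-sided, adjusted p = 0.00180) and Spearman's rho = 0.87 (permutation p = 1.80e-04, adjusted p = 0.00648). It was 0.80 without the 2 samples farthest from the median and 0.91 without the 4 libraries that stood apart. Lama5 and Lamb2 had r = 0.79 (permutation p = 4.50e-04, adjusted p = 0.00810) and rho = 0.72 (permutation p = 0.00172, adjusted p = 0.0264), with r = 0.77 without the 2 farthest samples. Lama5 and Lamb3 had r = 0.80 (permutation p = 0.00284, adjusted p = 0.0256) and rho = 0.75 (permutation p = 0.00888, adjusted p = 0.0639). Lamb3 also passed by r with Lamb2 (r = 0.74, permutation p = 0.00484, adjusted p = 0.0348) and with Lamb1 (r = 0.71, permutation p = 0.0113, adjusted p = 0.0453). Without the 2 farthest samples Lamb3 had r = 0.75 with Lama5, 0.66 with Lamb2 and 0.49 with Lamb1. Lama3 and Lamb3, which share a trimer, had r = 0.65 (permutation p = 0.0276, adjusted p = 0.0771) and rho = 0.63 (permutation p = 0.0353, adjusted p = 0.157), which did not pass. The r of this pair was 0.79 without the 2 farthest samples. By Pearson's r, 9 of the 36 pairs passed an adjusted p of 0.05. By Spearman's rho only Lamb1 with Lamc1, Lama5 with Lamb2 and Lama4 with Lamc1 passed. The last pair had rho = 0.77 (permutation p = 0.00220, adjusted p = 0.0264) and r = 0.66 (permutation p = 0.00894, adjusted p = 0.0453).

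**Figure D5:**
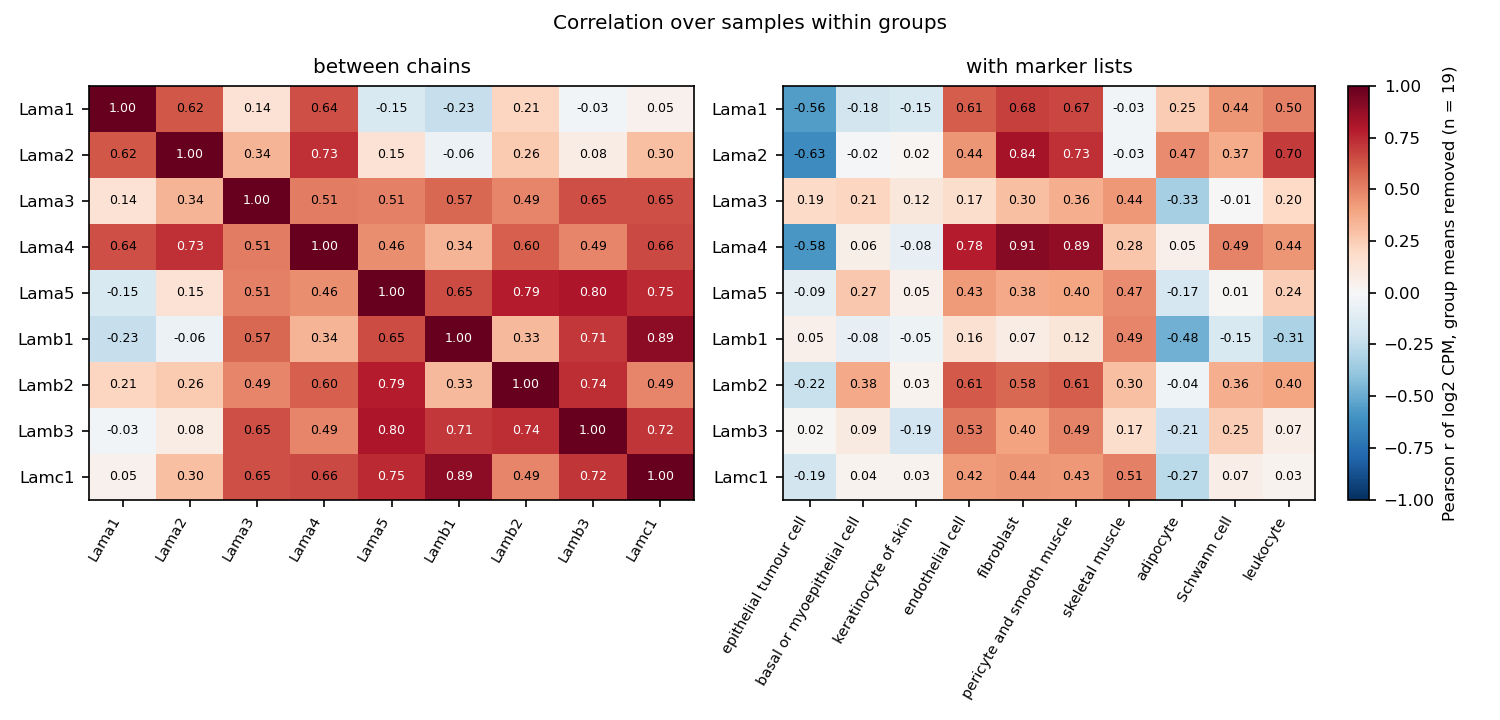
Pearson's r of log2 CPM over 19 samples with group means removed, between the 9 chains (left) and between each chain and the mean of each of 10 lists of cell type markers (right). The Lamb1 and Lamc1 pair at 0.89 and the cells of Lama4 with fibroblast markers at 0.91 and with pericyte and smooth muscle markers at 0.89 are the darkest outside the diagonal.

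The same measure was taken between the chains and 10 lists of cell type markers, 90 relations in all, of which 4 passed an adjusted p of 0.05 by Pearson's r. Lama4 went with the 11 fibroblast markers, with r = 0.91 (permutation p = 4.00e-05, adjusted p = 0.00270) and rho = 0.82 (permutation p = 2.30e-04, adjusted p = 0.0103). It was 0.88 without the 2 farthest samples. Lama2 went with the same list, with r = 0.84 (permutation p = 6.00e-05, adjusted p = 0.00270) and rho = 0.82 (permutation p = 1.60e-04, adjusted p = 0.0103), and 0.75 without the 2 farthest samples. With the 8 pericyte and smooth muscle markers, Lama4 had r = 0.89 (permutation p = 2.10e-04, adjusted p = 0.00630) and rho = 0.66 (permutation p = 0.0140, adjusted p = 0.205), and Lama2 had r = 0.73 (permutation p = 8.30e-04, adjusted p = 0.0187) and rho = 0.65 (permutation p = 0.0110, adjusted p = 0.198), so these held by r alone. Lama4 and the 12 endothelial markers lay just short of the threshold, with r = 0.78 (permutation p = 0.00288, adjusted p = 0.0508) and rho = 0.66 (permutation p = 0.00895, adjusted p = 0.198). This r was 0.79 without the 2 farthest samples. With the 11 epithelial markers Lama3 had r = 0.19 and Lamb3 r = 0.02, and with the basal or myoepithelial markers 0.21 and 0.09, and none of these passed.

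The genes most like each chain by this measure, outside the laminin set and over the same 19 samples, are given as a description. For Lama3 they were Ubr2 (r = 0.90), Mical3 (0.86) and Srgap2 (0.86), and for Lamb3 they were Cd276 (0.93), Src (0.93) and Mfhas1 (0.93). Lama4 had Tbc1d14 (0.97), Prex2 (0.95) and Arhgap31 (0.93). Lama5 had Flnc (0.94) and Ppard (0.93), and Lama2 had Hmcn1 (0.95), which encodes an extracellular matrix protein, Nsd1 (0.93) and Atp10d (0.93). Lamb1 had Tctn2 (0.91), Ust (0.90) and Lrrc16a (0.87), Lamb2 had Arid5a (0.95), Usp19 (0.94) and Pld2 (0.94), and Lamc1 had Aff1 (0.95), Cux1 (0.94) and Med13l (0.94). Lama1 had the lowest values, with Fgf13 (0.84), Clstn2 (0.83) and Map3k15 (0.81).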

How the data were processed

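Polyadenylated RNA of 19 tumours was sequenced in paired-end runs after a stranded TruSeq preparation, per the labels' protocols. The authors deposited raw gene counts, not normalized, with HTSeq 0.5.3, Picard 1.124 and build mm10 named in the submitters' processing notes. The aligner, annotation release and strand setting are not given in the sources used here, so reads of antisense partners cannot be told apart. Reads in the summary lines that no gene received (8.42% to 13.8% of reads in no feature, 10.2% to 14.1% not unique, 1.56% to 1.92% ambiguous) were left out of totals. Gene counts summed to 31783272 to 43266699 per sample, where 3 counts stand for 0.0693 to 0.0944 CPM. This floor covers counting error only, since PCR copies were not told apart from molecules. The lowest chi-square per gene over 171 pairs of libraries was 5.40, so no library was found deposited more than once.

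Counts were fitted in R 4.3.3 with edgeR 4.0.16: filterByExpr, TMM factors, 1 coefficient per group over all 19 samples, the quasi-likelihood F test and Benjamini-Hochberg adjustment over 16763 genes at 0.05. CPM used TMM-scaled totals, and CPM per kb divided by the union of exons of GENCODE M21 (GRCm38). Correlations used log2 CPM (prior count 2) with group means removed, and two-sided p-values from 100000 permutations of samples within groups. The model code was tested on simulated data. Alternatives were a replicate block, other scaling, no low count filter, only the groups compared, limma 3.58.1 (voom), DESeq2 1.42.0 and each library left out. A fit without 4 libraries was chosen after seeing the data.

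The members and gene lists were chosen with earlier results of these data known. All 9 members were named, in each partner list up to 4 genes past the threshold with the smallest p, and Itga6, Itgb4, Itga3, Dag1, Nid1 and Col4a1 whatever their values. For each member, the 3 genes with the highest r were named, leaving out members and predicted or clone-named genes. Of the list symbols, 3 were matched by identifier, and Ntn3 was not matched. Some genes that these rules pick are not reported here. Promoter stretches are RefSeq's for GRCm38.p6.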

Additional observations from a re-analysis of the deposited data

Results flagged for a closer look

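Lamc1 in LDHA-KD IgG replicate 3 was at 476 CPM, apart from the other 4 samples of its group, which lay between 428 and 440.4 CPM. The gap to the nearest sample took up 73.7% of the group's range, past Dixon's 95% critical value for 5 samples. No other sample in the 36 groups of the 9 chains passed the value for its group's size. The next was Lamc1 in LDHA-KD anti-CTLA-4 replicate 1, at 66.2%. Chance sets apart about 1 in 20 groups.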

How the results depend on the processing

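The calls of Lamb3 in both knockdown contrasts, and of Lama4 and Lamb1 under IgG, held under all 27 alternatives. The count of called chains under IgG was 3 or 4 in each. Under anti-CTLA-4 it was 3, with 2 or 3 under every alternative but the block. The labels do not say that replicate numbers pair samples. Over 27 same-numbered pairs across groups the correlations ran from -0.282 to 0.361, 12 of them over 0.1, and 16 of 54 best matches had the same number. Between the 2 anti-CTLA-4 groups all 5 were positive (0.0558 to 0.246), so the pairing is not settled there. With a replicate block 4 chains were called under IgG and 5 under anti-CTLA-4, where Lama2 (0.60, edgeR adjusted p = 0.0277) and Lama4 (-0.35, adjusted p = 0.0305) were added, and the block changed no other call of a member. Nid1 passed there too (-0.42, adjusted p = 0.0428). Without the 4 libraries that stood apart, 4308 genes were called in LDHA-KD against control tumours under anti-CTLA-4, against 6711, in a fit with fewer samples, and 3 chains were called in each knockdown contrast. DESeq2 called 13 genes and 1 chain for anti-CTLA-4 in control tumours and 49 genes in LDHA-KD tumours, where edgeR called 0, and 0 to 1 with 1 library left out; the cause was not tested.

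Signs turned for small differences that passed no test. For LDHA-KD against control under IgG with 1 library left out, Lama2 ran from -0.14 to 0.24, Lama5 from -0.061 to 0.19, Lamb2 from -0.12 to 0.078 and Itgb4 from -0.17 to 0.17. On library totals Lamb2 was 0.036 and Itgb4 0.053, and with voom Itgb4 was 0.032. Under anti-CTLA-4, Lamb2 ran from -0.015 to 0.14 and Itgb4 from -0.033 to 0.13, and without the 4 libraries Lamb2 was -0.097 and Col4a1 -0.067. For anti-CTLA-4 against IgG, Lama3 ran from -0.12 to 0.15 and Lamb3 from -0.0096 to 0.32 in control tumours, and Lama3 from -0.21 to 0.10 and Lama1 from -0.23 to 0.0065 in LDHA-KD tumours. Lama3 in control tumours was -0.032 with the replicate block and -0.00475 on library totals. Library totals moved the median of all genes by 0.07 and 0.10 in the knockdown contrasts. Lama1, at 10 to 47 counts per sample, is the chain whose values depth limits most.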
